A study of Homo sapiens with 12 samples.

Results

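The samples described here were the 2 siCHD4 and the 2 siCTL libraries of an RNA-seq series of 12 libraries, chosen by their treatment label, and all expressed genes were compared between them. The sample titles name HEK293T cells, a human embryonic kidney line that carries the SV40 large T antigen, whereas the paper names HEK293 cells. The cells were grown in DMEM with 10% FBS and labelled as wild type. They received a control siRNA (siCTL) or an siRNA against CARM1, CHD4, HDAC2, GATAD2A or KDM1A, with 2 libraries for each. The siCARM1, siHDAC2, siGATAD2A and siKDM1A libraries serve below to show where siCHD4 differed from the other knockdowns. Every group, siCTL included, went through transfection by the study's methods, and the labels do not give the time between transfection and harvest. The labels also do not say whether the 2 libraries of a group came from separate cultures, so the p-values below measure the spread between these libraries, which may be technical.

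CHD4 is the ATPase that moves nucleosomes in the NuRD complex, which couples chromatin remodelling to histone deacetylation. In NuRD, HDAC1 and HDAC2 remove acetyl groups, the MTA proteins scaffold the deacetylases with the histone chaperones RBBP4 and RBBP7, MBD2 and MBD3 belong to the methyl-CpG-binding family, and GATAD2A and GATAD2B join CHD4 to the deacetylase part. CHD3 and CHD5 are paralogs of CHD4 that can take its place in the complex. The complex is best known for keeping genes silent, in particular genes of other lineages and of the germline.

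The libraries held 19308315 to 28648656 read pairs on genes of the sense strand. The siCTL libraries were the shallower, with 19308315 and 23069837, against 24645579 and 25531859 in siCHD4. Fragments with several genomic locations, which are left out of the counts, were 10.6% and 7.54% of the siCTL libraries and 6.48% and 5.90% of the siCHD4 libraries. Counts are given also as CPM, which scales them to the normalized library total of the genes tested together. The lncRNA genes were tested in another set of genes, and summed levels use the raw total of all genes. FPKM divides counts by this raw total and by exonic length, and is the scale on which levels of different genes can be compared. Of 16 markers of the HEK293 lineage 12 passed the filter, with KRT8, KRT18 and VIM the most abundant, whereas CDH6 of kidney epithelium, also on that list, had 0 counts in all 4 libraries. Among markers of foreign cell types, the leukocyte gene PTPRC and the kidney tubule genes UMOD and AQP2 had 0 counts in all 4 libraries. Some of the others were higher in siCHD4, such as the T cell gene CD3E with 0 counts in both siCTL libraries and 9 and 11 in siCHD4. ESR1 had 1 and 0 counts against 13 and 14, and the glial gene GFAP had 35 and 44 against 87 and 119. GATA3 went the other way, from 331 and 316 counts to 252 and 274. By CPM, 12 of the 22 foreign markers were higher in siCHD4 and 7 were lower. The summed level of 22 such markers, most of it from COL1A1 and KRT19, was 252 and 248 CPM in siCTL and 237 and 234 CPM in siCHD4.

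CHD4 itself (ENSG00000111642.16, chr12:6679248-6723690 of GRCh37, minus strand) was measured first. It was counted 723 and 862 times in siCTL and 604 and 654 times in siCHD4, or at 39.5 and 39.6 CPM against 26.7 and 27.9 CPM. The groups did not overlap, and the log2 fold change was -0.54 ± 0.07 (SE), with an adjusted p of 1.17e-07 by edgeR's quasi-likelihood test with Benjamini-Hochberg adjustment. The siCHD4 libraries were the lowest of all 12, and the other knockdowns lay between 30.7 and 41.4 CPM. Against siCARM1 directly the difference of -0.22 was below the fold required for a call. The annotation limits this measurement, since 46.9% of the exonic bases of CHD4 are shared on the same strand with a second coding gene, ENSG00000285238, which had 0 counts in all 12 libraries, and read pairs that lie in both genes are assigned to neither. How far the CHD4 level fell in the shared exons was not tested.

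Of the rest of the complex, some genes were higher and none was called lower. All 16 NuRD genes were expressed, of which 5 rose, CHD4 alone was called lower, and 10 were not called. Of all 12830 genes tested 24.0% were called higher and 24.9% lower. CHD5 passed the filter only through its level in siCHD4, and of the 15 NuRD genes above the filter in siCTL 4 rose. GATAD2A was at 182 and 166 CPM in siCTL and at 371 and 368 CPM in siCHD4. It rose 2.12-fold, with a log2 fold change of 1.09 ± 0.05 (adjusted p = 1.34e-17, edgeR), and was above each of the other groups, which ranged from 51.0 CPM in siGATAD2A to 208 CPM in siKDM1A. The direct log2 difference from siKDM1A was 0.86 and that from siCARM1 was 1.10.

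Both paralogs of CHD4 were higher. CHD5, the paralog best known from neurons, could be tested only because of its level in siCHD4 and is given as a description. It was at 1.31 and 1.75 CPM in siCTL and at 6.71 and 6.18 CPM in siCHD4, a log2 difference of 2.06. CHD3 went from 159 and 149 CPM to 229 in both siCHD4 libraries, a log2 fold change of 0.58 ± 0.05, and it was also called higher in siCARM1 and siHDAC2, by 0.40 and 0.41. CDK2AP1, a small subunit, rose by 0.41, although it was lower in siGATAD2A and siKDM1A. HDAC1 rose by 0.31, and the log2 fold changes of the other knockdowns were 0.39 to 0.52. The deacetylase HDAC2 had a log2 fold change of 0.10, GATAD2B of 0.02, MTA3 of 0.03, RBBP7 of -0.04, MBD3 of -0.11 and both MTA2 and RBBP4 of -0.18, none of them called.

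**Figure D1:**
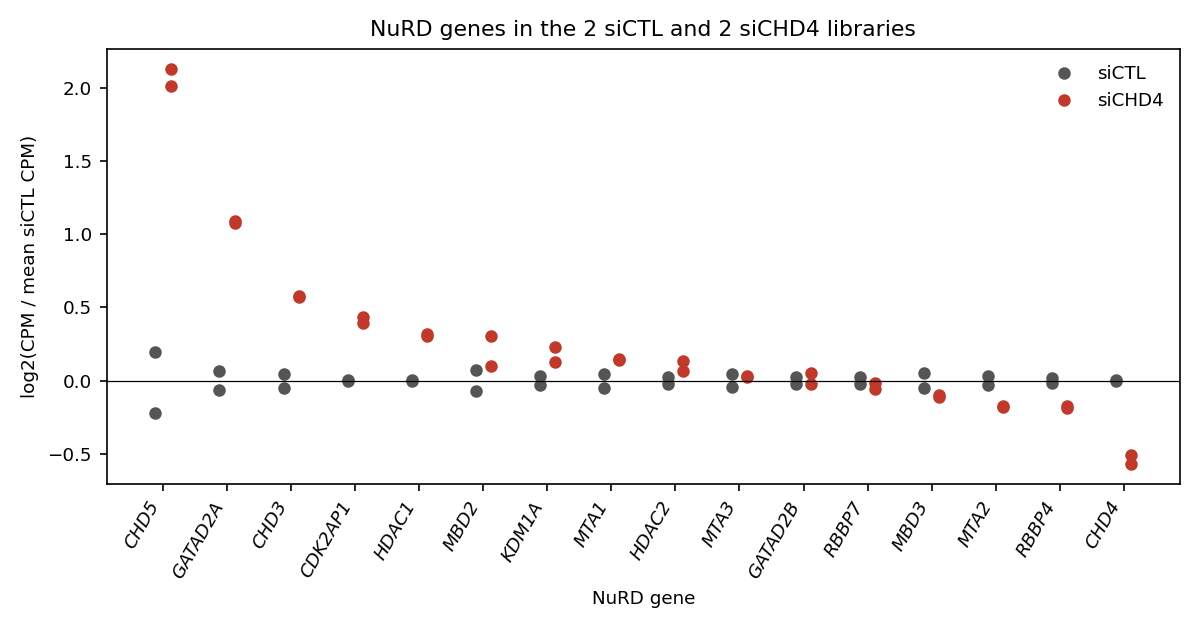
Level of the 16 NuRD genes in each siCTL and siCHD4 library, as log2 of the CPM over the mean siCTL CPM (vertical axis), with 1 point per library. CHD5 and GATAD2A lie highest, with log2 fold changes of 2.06 and 1.09, and CHD4 is the lowest at -0.54.

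Across the transcriptome, close to as many genes were called higher as lower in siCHD4. The paper's methods list a single siRNA sequence against CHD4. Effects of that sequence on other RNAs and those of the lower CHD4 level cannot be told apart. Of 12830 coding genes with FPKM over 0.5 in at least 1 group, 3076 were called higher (24.0%) and 3191 lower (24.9%), with edgeR's adjusted p no higher than 0.05 and a change of 1.2-fold or more. RNA was measured in bulk, so that fewer cells of a type and less RNA per cell cannot be told apart. The same thresholds called higher and lower 14.9% and 14.5% of genes in siCARM1, 10.6% and 9.00% in siHDAC2, 15.7% and 18.2% in siGATAD2A, and 14.2% and 11.5% in siKDM1A. When siCHD4 was set directly against the other knockdowns, it was higher and lower at 23.3% and 24.5% of genes against siCARM1, 23.5% and 25.3% against siHDAC2, 22.9% and 21.9% against siGATAD2A, and 22.8% and 25.0% against siKDM1A. The 5 comparisons with siCTL share its 2 libraries.

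Most changes were small, with a median fold of 1.45 among the genes called in either direction. By more than 4-fold 233 genes rose and 59 fell, but 221 of the genes tested passed the filter only through siCHD4. Among genes above the filter in siCTL, 56 rose and 58 fell by more than 4-fold, and 10 rose and 6 fell by more than 8-fold. By level in siCTL, 26.9% of the 905 genes from 0.5 to 1 FPKM were called higher and 25.1% lower. These shares were 21.7% and 32.1% of 3843 genes from 1 to 5 FPKM, 21.7% and 23.8% of 5230 genes from 5 to 20 FPKM, and 21.4% and 21.5% of 1973 genes from 20 to 100 FPKM. From 0.1 to 0.5 FPKM, 55.7% of 583 genes were called higher and 4.63% lower, but a gene this low in siCTL was tested only if another group raised it over the filter, so these shares are a description. Among the 12164 genes above the filter in siCTL itself, 21.9% were called higher and 26.0% lower, and these shares are the background for the gene groups below.

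More genes were detected after CHD4 knockdown. With every library reduced to the smallest total, siCTL had 26737 and 26729 genes with at least 1 count and siCHD4 had 28390 and 28351, above all 8 libraries of the other knockdowns, 27121 to 27626. The same order held for coding genes, at 15760 and 15744 in siCTL and 16222 and 16245 in siCHD4, and for lncRNA genes, at 6550 and 6581 against 7347 and 7289.

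**Figure D2:**
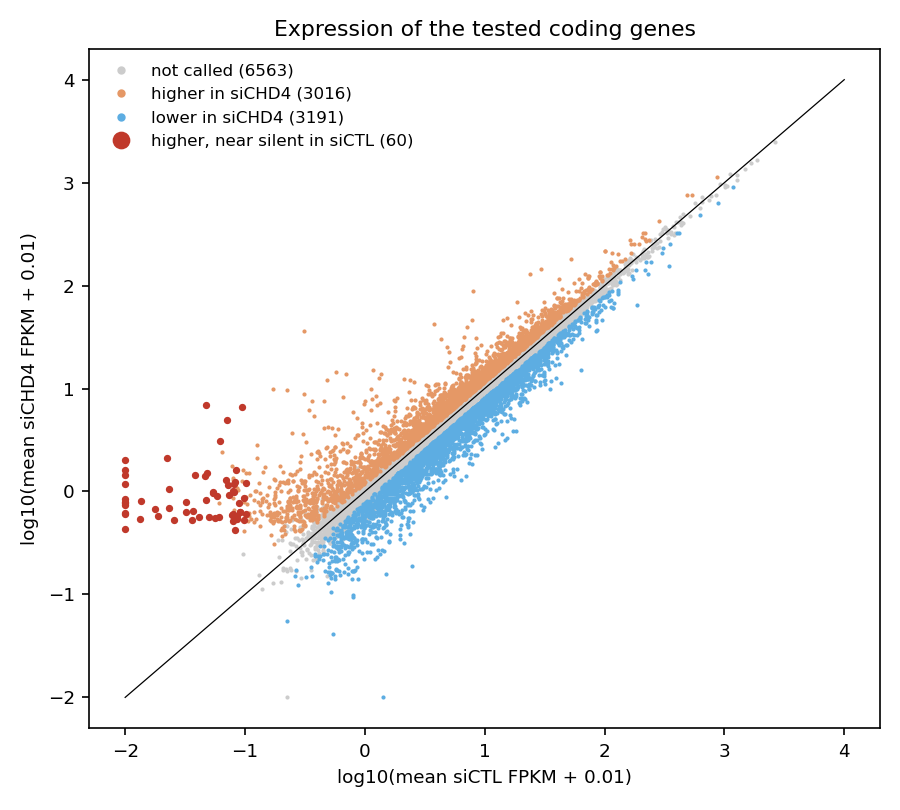
Mean FPKM in siCHD4 (vertical) against siCTL (horizontal) for the 12830 tested coding genes, both on a log10 scale after adding 0.01, with 1 point per gene and the line of equal levels. Most called genes lie near the line, and the 60 genes near silent in siCTL and higher in siCHD4 form the group at the left.

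Genes near silent in siCTL were examined as a set. Near silent was defined as FPKM of at most 0.1 in each siCTL library, which 5695 coding genes met. Of these, 61 passed the filter and 60 were called higher, 58 of them with FPKM over 0.5 in siCHD4, so that they had to differ and their number and levels are given only as a description. The 5634 others stayed below the filter in all 6 groups. Among the 60 genes the median FPKM was 0.0420 in siCTL and 0.784 in siCHD4, and 20 genes exceeded an FPKM of 1. The genes just inside the limit of 0.1 were NPBWR1, SMPD3 and FER1L5, and just outside it lay GRP, POTEF and ONECUT3, with 0.101 to 0.103 FPKM in the higher siCTL library.

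LYG2, a lysozyme-like gene, reached the highest level. It was counted once in each siCTL library and 221 and 219 times in siCHD4, where its FPKM was 7.06 and 6.75. The ratio of the levels was 186, with a 95% counting interval of 51.1 to 1539. In the other knockdowns LYG2 lay between 0 and 0.447 CPM, compared with 9.76 and 9.33 CPM in siCHD4. Intervals and limits of this kind cover counting error only.

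Several of the genes encode cancer-testis antigens, which are normally made in the testis and silenced in somatic tissue, often by DNA methylation. MAGEB6 was counted 3 and 4 times in siCTL and 327 and 323 times in siCHD4, and MAGEC1 5 and 6 times against 540 and 510 times. CTCFL, the testis paralog of the insulator protein CTCF, was counted 8 and 12 times in siCTL and 681 and 705 times in siCHD4. The log2 differences were 6.29, 6.34 and 5.89, with standard errors of 0.30, 0.26 and 0.25.

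Smaller counts came from SPANXN1, a gene of sperm proteins, with 0 in both siCTL libraries and 32 and 38 in siCHD4, which was at least 19.7-fold higher when siCTL was set to a limit of 3 counts over both libraries. CT55 was counted 0 and 1 times in siCTL and 88 and 96 times in siCHD4. MEIOSIN, a transcription factor gene of meiotic entry, was counted 2 times and 1 time in siCTL and 86 and 99 times in siCHD4. For each of these genes both siCHD4 libraries lay far above both siCTL libraries. The choice of genes near silent in siCTL and highest in siCHD4 largely fixed this difference.

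Others of the 15 highest near-silent genes included some that belong to differentiated tissues. CELA2B, a pancreatic elastase, had 0 counts in both siCTL libraries and 63 and 55 in siCHD4, at least 33.2-fold higher, and 20.6% of its exonic bases are shared with a same-strand neighbour. NPPB, the gene of a natriuretic peptide of the heart, went from 0 in both siCTL libraries to 28 and 23. CASQ1, a calcium-binding protein of skeletal muscle, was counted 3 and 0 times in siCTL and 81 and 72 times in siCHD4. HCN4, the pacemaker channel, and SPN, a sialoglycoprotein of leukocytes, had log2 fold changes of 3.74 and 4.10, TNFRSF8 (CD30) of 4.51, the growth factor AREG of 4.45 and GARIN1B of 5.27.

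**Figure D3:**
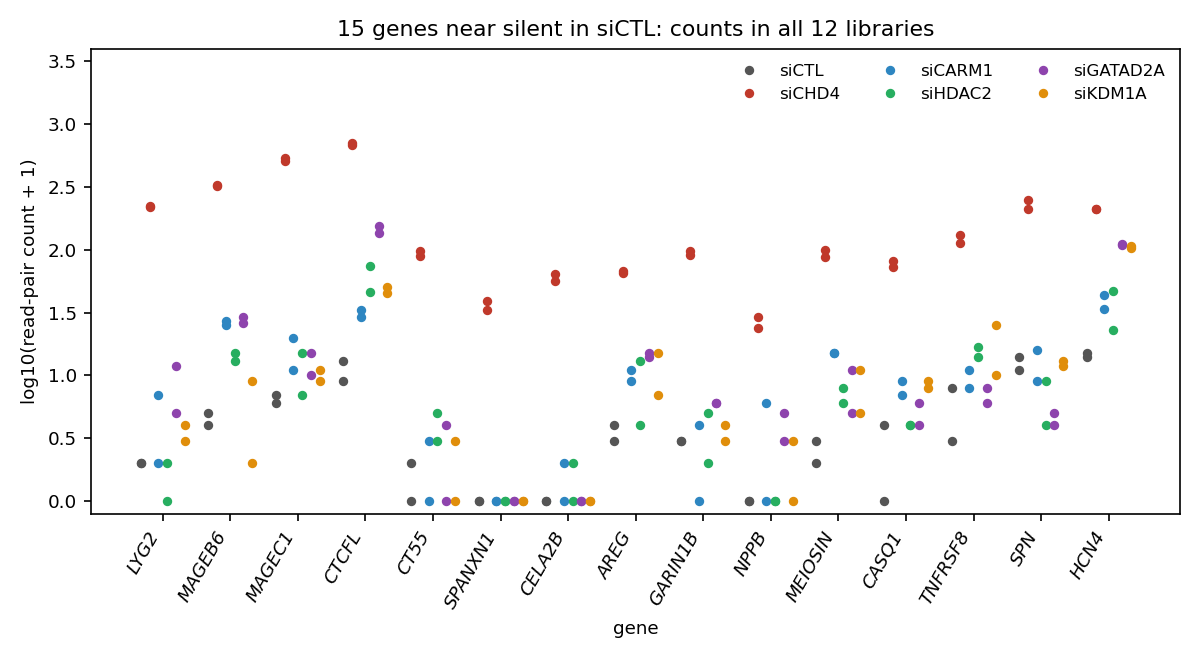
Read-pair counts in all 12 libraries (log10 of the count plus 1, vertical axis) for the 15 near-silent genes with the highest FPKM in siCHD4, with 1 point per library and a colour per group. Both siCHD4 libraries lie above the 10 others for each gene, with CTCFL at 681 and 705 counts and SPANXN1 at 32 and 38.

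In the other knockdowns most of these genes lay lower. Among the exceptions, FOXQ1 was called lower in siCHD4 than in siGATAD2A, with a direct log2 difference of -0.71. CCL26 had a mean FPKM of 0.426 in siCHD4, 0.499 in siCARM1 and 0.569 in siKDM1A, and these direct differences were not called. The 60 genes had a median FPKM of 0.0933 in siCARM1, 0.0747 in siHDAC2, 0.107 in siGATAD2A and 0.0636 in siKDM1A, and 18, 9, 22 and 13 of them were called higher than in siCTL there. Directly, siCHD4 was higher than siCARM1 at 56 of the 60 genes, than siHDAC2 at 57, than siGATAD2A at 55 and than siKDM1A at 58, again among genes that mostly passed the filter in siCHD4. CTCFL showed a graded pattern. It was at 1.07 and 1.53 CPM in siCARM1, 3.76 and 1.68 in siHDAC2, 2.28 and 1.84 in siKDM1A and 5.45 and 6.77 in siGATAD2A, compared with 30.1 and 30.0 in siCHD4 and 0.438 and 0.552 in siCTL, and its direct log2 difference from siGATAD2A was 2.30. By position, 9 of the 60 genes lie on chromosome X, where 3.52% of the tested genes and 6.16% of the 5634 near-silent genes below the filter lie.

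Promoters of these genes held fewer CpG dinucleotides than those of expressed genes at large, which is given as a description. RefSeq promoters of GRCh38.p14, 250 bases before to 50 after the start, were matched for 44 of the 60 genes. Their median GC content was 57.3% and they held a median of 9 CpG dinucleotides, and 12 of 44 (27.3%) had an observed over expected CpG ratio above 0.6, a common mark of CpG islands. For 10395 promoters of tested genes these values were 65.7%, 27 and 83.9%, and for 3870 promoters of near-silent coding genes that stayed below the filter they were 52.3%, 5 and 25.0%. The share of CpG-rich promoters among the 44 was thus close to that among the other near-silent genes. The 44 promoters held 1 to 49 CpG. Those of 3 of the 4 near-silent genes with the highest FPKM are printed, each 5′ to 3′ with CpG in capitals, and all of them had an observed over expected ratio under 0.6. LYG2 has 2 CpG (chr2:99255617-99255916, minus strand), MAGEC1 has 14 (chrX:141903644-141903943, plus strand) and CTCFL has 19 (chr20:57524648-57524947, minus strand).

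LYG2: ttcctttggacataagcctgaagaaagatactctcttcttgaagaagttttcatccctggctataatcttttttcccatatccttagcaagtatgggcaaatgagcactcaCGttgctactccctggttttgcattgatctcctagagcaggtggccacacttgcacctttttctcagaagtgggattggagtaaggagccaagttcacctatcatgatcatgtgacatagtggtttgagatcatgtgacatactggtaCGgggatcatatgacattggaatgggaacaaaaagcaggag

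MAGEC1: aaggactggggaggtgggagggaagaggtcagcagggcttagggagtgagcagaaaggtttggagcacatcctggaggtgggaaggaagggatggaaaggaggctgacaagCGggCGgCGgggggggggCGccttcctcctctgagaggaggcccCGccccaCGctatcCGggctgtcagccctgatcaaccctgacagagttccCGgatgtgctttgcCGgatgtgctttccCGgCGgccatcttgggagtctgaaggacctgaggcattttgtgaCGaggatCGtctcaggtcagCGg

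CTCFL: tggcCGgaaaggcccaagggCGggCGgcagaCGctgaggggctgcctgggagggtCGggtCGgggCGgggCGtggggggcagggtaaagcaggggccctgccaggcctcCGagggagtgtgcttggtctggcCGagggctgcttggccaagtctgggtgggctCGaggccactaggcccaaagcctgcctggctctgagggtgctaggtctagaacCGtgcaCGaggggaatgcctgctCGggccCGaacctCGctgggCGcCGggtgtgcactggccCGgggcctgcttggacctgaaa

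The germline list, written by hand, held 87 genes that matched, of which 69 stayed below the filter. Of the 18 tested, 14 rose and 3 fell, but 6 had passed only through siCHD4. Among the 8 that were above the filter in siCTL, 4 rose and 3 fell, compared with the background of 21.9% and 26.0%. Without any filter, the list's summed level was 158 and 155 CPM in siCTL, 345 and 342 CPM in siCHD4 and 166 to 219 CPM in the other knockdowns, and of 49 members with no count in either siCTL library, which could only rise, 27 were counted in siCHD4 and 12 to 16 in each other knockdown.

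The increase was uneven within the list. MAGEC2 went from 4 and 10 counts to 494 and 501 (log2 fold change 5.93 ± 0.26), and NLRP4, an oocyte gene, from 2 and 0 to 104 and 101. SSX1 had 0 counts in both siCTL libraries and 24 in each siCHD4 library. H1-6, the testis linker histone, was chosen after its values were seen, because its counts in siCHD4 exceeded those of CTCFL. It went from 109 and 136 counts to 1597 and 1647, and it was also counted 335 to 491 times in siCARM1 and siGATAD2A.

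Other members, also picked after their values were seen, remained at or near 0. DAZL, SYCE1, SPO11, PAGE2, SSX2 and CTAG1B had no count in siCTL or siCHD4, and DDX4, the vasa homologue, had 0 and 0 in siCTL and 0 and 1 in siCHD4. The meiotic genes SYCE2 and SYCP2 and the zona pellucida gene ZP3 fell, with log2 fold changes of -1.90, -0.60 and -0.73, but with counts taken without regard to strand 1 member of the list was called lower in place of 3. MAGE, SSX, PAGE, SPANX and related genes have near-identical copies, and read pairs that map to several of them are left out, so the counts for single members are uncertain.

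Among genes with more than 3 counts in siCTL, the largest rise was that of CGA (ENSG00000135346.9, chr6:87795216-87804824 of GRCh37, minus strand), the common alpha subunit of the gonadotropins and thyrotropin, which is normally made in pituitary and placenta. CGA was at 0.656 and 0.598 CPM in siCTL and at 76.5 and 80.03 CPM in siCHD4, where its FPKM was 35.4 and 37.1. It was 124-fold higher, a log2 difference of 6.96 ± 0.16. In siCTL CGA was below the filter, and it was tested only because siCHD4 and siGATAD2A lay above it. Its rise is therefore given as a description. Its log2 fold changes were -0.21 to 0.24 in siCARM1, siHDAC2 and siKDM1A, none of them called. In siGATAD2A it was at 3.29 and 2.92 CPM and was called higher than siCTL with a log2 fold change of 2.31. The RefSeq promoter of CGA (GRCh38.p14, chr6:87095057-87095356, minus strand) is shown because it carries a pair of matches to the cAMP response element TGACGTCA, a palindrome that reads the same on both strands and is marked in capitals.

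CGA: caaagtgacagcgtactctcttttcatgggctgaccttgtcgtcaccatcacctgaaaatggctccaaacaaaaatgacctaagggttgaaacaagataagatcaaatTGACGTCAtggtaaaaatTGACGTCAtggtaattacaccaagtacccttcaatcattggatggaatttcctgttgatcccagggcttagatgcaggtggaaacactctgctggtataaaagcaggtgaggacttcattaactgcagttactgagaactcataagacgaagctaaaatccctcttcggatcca

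The element was found in 540 of 27305 RefSeq promoters of this length (1.98%), and 18 promoters (0.0659%) held it at least 2 times. A match in this window is a description of the sequence and was not tested for binding.

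The other genes with the largest rise included OTOA, a gene of the inner ear, with 1 and 0 counts in siCTL and 175 and 128 in siCHD4, DYDC2, with 0 in both siCTL libraries and 72 in each siCHD4 library (at least 40.5-fold higher), and C5AR2, a receptor for complement C5a, with 0 and 1 counts against 101 and 81. COL6A3, a chain of collagen VI, went from 3 and 4 counts to 378 and 337 (log2 fold change 6.43 ± 0.29) and was also higher in each other knockdown, by 2.19 to 3.75. OTOA, DYDC2, C5AR2 and COL6A3 belong to the near-silent genes and passed the filter only through siCHD4, so their rises are given as a description.

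MAP2K6 had the largest fall of the genes with at least 50 counts. It encodes MKK6, a kinase that activates p38. It was at 42.8 and 43.8 CPM in siCTL and at 3.27 and 3.15 CPM in siCHD4, a 13.5-fold fall with a log2 fold change of -3.75 ± 0.11 (adjusted p = 1.07e-22, edgeR). The other knockdowns lowered it as well, to 17.1 and 18.7 CPM in siCARM1, 31.9 and 28.6 in siHDAC2, 9.23 and 8.47 in siKDM1A and 6.42 and 7.08 in siGATAD2A, and the direct difference of siCHD4 from siGATAD2A, the nearest, was -1.07. The fall did not extend to the pathway. Of 44 genes of the p38 pathway 14 rose and 10 fell, with a median log2 fold change of 0.01. These shares, 31.8% and 22.7%, compare with the background of 21.9% and 26.0%. Upstream, MAP3K6 and MAP3K12 fell, by 1.57 and 1.16 on the log2 scale, whereas the phosphatase genes DUSP4 and DUSP10 and the downstream kinase gene MKNK2 rose, with log2 fold changes of 1.29, 0.83 and 0.73.

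SCN9A, a voltage-gated sodium channel gene, fell although no other knockdown lowered it. It was at 11.5 and 11.3 CPM in siCTL and at 1.81 and 2.17 CPM in siCHD4 (log2 fold change -2.51 ± 0.15), and its log2 fold changes in the other knockdowns were 0.17 to 0.95. Among the other large decreases were those of PRODH, the proline dehydrogenase of mitochondria, with -3.10, BICDL2 with -3.15, the uroplakin gene UPK1B with -2.72, the channel-like gene TMC4 with -2.69, the tubulin ligase gene TTLL1 with -2.61, the ectonucleotidase gene ENTPD2 with -2.53 and the nociceptin receptor gene OPRL1 with -2.47.

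Immediate early genes, which respond to growth factors and stress within minutes, were mostly higher after CHD4 knockdown, but the classical members FOS, FOSB and EGR1 were lower. Of 31 tested, 20 rose and 3 fell, with a median log2 fold change of 0.84, and among the 29 above the filter in siCTL 18 rose and 3 fell. DUSP5, a phosphatase of ERK, went from 11.98 and 10.9 CPM to 82.4 and 82.8 CPM, a log2 fold change of 2.85 ± 0.08. The orphan nuclear receptor gene NR4A1 went from 37.96 and 39.4 CPM to 184 and 177 CPM, or by 2.22 ± 0.07. FOSL1, which encodes the AP-1 subunit FRA1, had a log2 fold change of 2.59 ± 0.14, and NR4A3 of 2.19 ± 0.23.

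FOS went from 50.6 and 52.6 CPM to 11.3 and 11.6 CPM, with a log2 fold change of -2.17 ± 0.09. FOSB fell by 2.26 and EGR1 by 1.03 on the log2 scale. The 3 falls were not particular to siCHD4, because the direct log2 differences of FOS, FOSB and EGR1 from siGATAD2A were 0.11, -0.01 and -0.10 and not called. Other knockdowns changed many of the 31 genes against siCTL as well. Called higher and lower were 12 and 2 in siCARM1, 2 and 13 in siHDAC2, 12 and 6 in siGATAD2A and 10 and 6 in siKDM1A. Directly, siCHD4 was higher and lower at 16 and 5 of the 31 genes against siCARM1, at 22 and 3 against siHDAC2, at 17 and 2 against siGATAD2A and at 20 and 3 against siKDM1A. For DUSP5 the smallest of these differences was 1.87 and for NR4A1 it was 1.79, both against siGATAD2A.

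More genes of the DNA replication machinery fell than rose, mostly by small amounts. Of 64 genes, all of them tested, 25 fell and 1 rose, with a median log2 fold change of -0.15, where the median of all tested genes was 0.00. LIG1, the ligase that joins Okazaki fragments, went from 208 and 211 CPM to 105 in both siCHD4 libraries, a log2 fold change of -0.998 ± 0.05 (adjusted p = 8.67e-18, edgeR). RPA1, a subunit of the single-strand binding protein, went from 197 and 195 CPM to 106 and 107 CPM. POLD2 of DNA polymerase delta and RFC4 of the clamp loader fell by 0.80 and 0.81 on the log2 scale, and CLSPN (claspin), the exception, rose by 0.39.

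In the other knockdowns at most 9 of the 64 genes were called higher and at most 7 lower than in siCTL. Set directly against them, siCHD4 was lower at 33 genes and higher at 3 against siCARM1, at 29 and 2 against siHDAC2, at 28 and 3 against siGATAD2A and at 25 and 4 against siKDM1A. The log2 differences of LIG1 from the other knockdowns were -0.71 to -0.99. Mitotic genes leaned the same way by less, with a median log2 fold change of -0.08. Of 48, 11 fell and 7 rose, near the background or below it, with SPC24 and SPC25 of the kinetochore lower and MYBL2 and CDC25A higher.

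**Figure D4:**
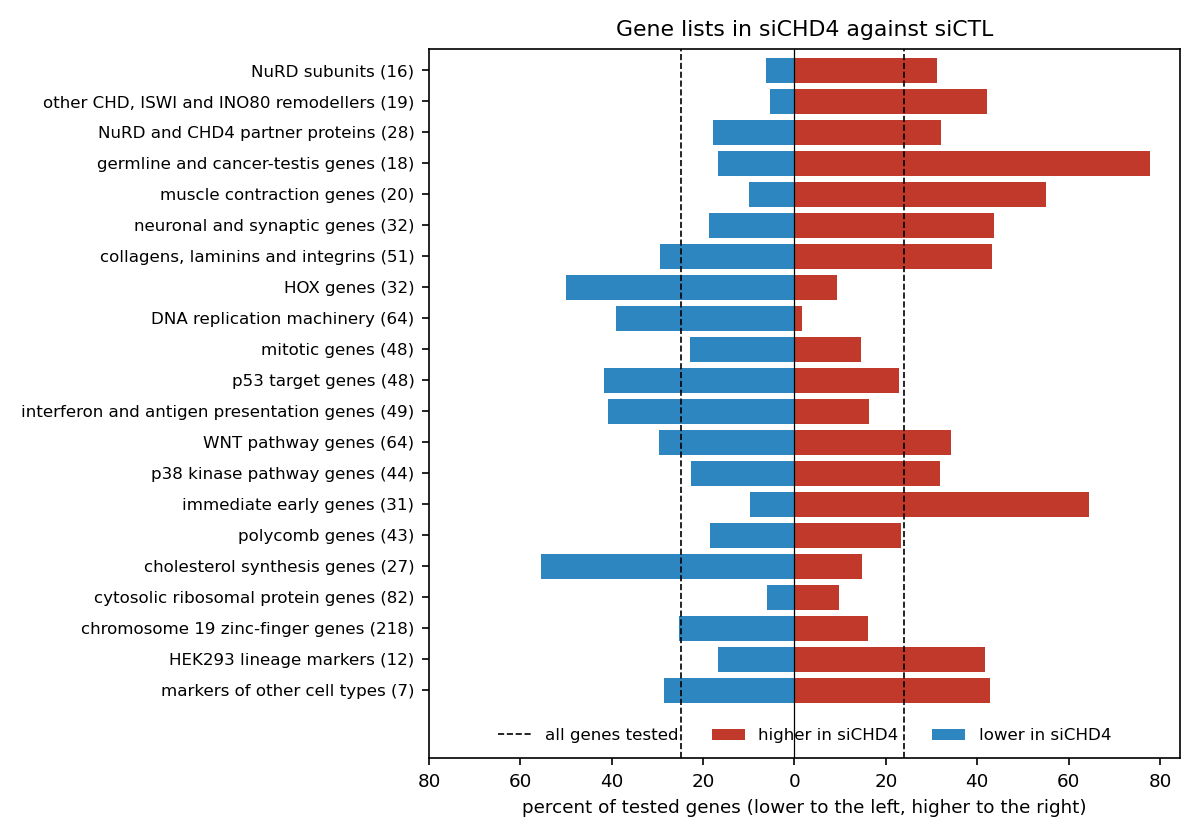
Percent of the tested genes of each hand-written list called higher (right) and lower (left) in siCHD4 against siCTL, with the number of genes tested in parentheses and dashed lines at the shares of all tested genes, 24.0% higher and 24.9% lower. Immediate early genes lie mainly to the right, and DNA replication, cholesterol synthesis and HOX genes mainly to the left.

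Genes of cholesterol synthesis and transport mostly fell. Of 27, 15 fell and 4 rose, with a median log2 fold change of -0.34. STARD4, a carrier of cholesterol, went from 63.8 and 61.3 CPM to 24.4 and 23.0 CPM, a log2 fold change of -1.40 ± 0.07. The enzyme genes PMVK, TM7SF2 and IDI1 fell by 1.18, 1.09 and 0.90 on the log2 scale. Of the genes that rose, LSS, the gene of lanosterol synthase, had a log2 fold change of 0.34. In the other knockdowns 1 to 4 of the 27 genes were called lower than in siCTL, and directly siCHD4 was lower at 15, 13, 16 and 14 of them against siCARM1, siHDAC2, siGATAD2A and siKDM1A.

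Among HOX genes, the positional regulators of the embryo, more fell than rose. Of 32 tested, 16 fell and 3 rose, with a median log2 fold change of -0.34. HOXB13 went from 27.8 and 29.8 CPM to 10.9 and 12.1 CPM, a log2 fold change of -1.33 ± 0.09, and HOXA5 and HOXA13 fell by 1.09 and 1.08 on the log2 scale. HOXA11, HOXA3 and HOXC11 rose, with log2 fold changes of 0.69, 0.60 and 0.57. Neighbours of 1 cluster therefore moved in opposite directions, as HOXA11 and HOXA13 did. Of the other knockdowns, each lowered 5 to 7 of the 32 genes, and siGATAD2A raised 6 and the others 0 to 2. Directly, siCHD4 was lower and higher at 11 and 5 genes against siCARM1 and at 9 and 4 against siHDAC2. Against siGATAD2A these numbers were 15 and 6, and against siKDM1A 12 and 3.

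Zinc-finger genes on chromosome 19, most of which encode KRAB repressors of transposable elements, moved differently from the other knockdowns. In siCHD4 35 of 218 were called higher and 55 lower, or 16.1% and 25.2%, near the background for the lower side. The other knockdowns raised more of them than they lowered, with 49 and 14 in siCARM1, 75 and 6 in siHDAC2, 62 and 10 in siGATAD2A and 53 and 11 in siKDM1A. Directly, siCHD4 was lower at 74 of the 218 genes against siCARM1, 115 against siHDAC2, 96 against siGATAD2A and 98 against siKDM1A, and higher at 11 to 18. ZNF524, with 15.4 and 13.3 CPM in siCTL and 4.28 and 3.75 CPM in siCHD4, fell by 1.83 on the log2 scale, and ZNF699 and ZNF428 fell by 1.59 and 1.55. ZNF850 and ZNF544 rose, with log2 fold changes of 0.88 and 1.12. These genes are similar in sequence, and pairs that map to several of them are left out of the counts.

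More target genes of p53 fell than rose. HEK293T cells, the line named in the sample titles, carry the SV40 large T antigen, which binds p53. Of 48 genes 20 fell and 11 rose, or 41.7% and 22.9%, compared with the background of 26.0% and 21.9%. PIDD1, a death domain protein gene, went from 262 and 276 CPM to 72.8 and 72.2 CPM, a log2 fold change of -1.89 ± 0.05, and DDB2, a sensor of ultraviolet damage, from 148 and 150 CPM to 60.3 and 61.1 CPM. TP53INP1 and SPATA18 fell by 1.10 and 1.09 on the log2 scale. Of the genes that rose, TNFRSF10D, a decoy receptor for TRAIL, had a log2 fold change of 2.53 ± 0.06, THBS1 of 1.54 and GADD45B of 1.11. In siGATAD2A 19 of these genes fell and 5 rose, and the direct differences of siCHD4 from it were 13 higher and 9 lower.

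Interferon and antigen presentation genes were lower at 20 and higher at 8 of 49. IFIT2, IFIT1 and IFITM2 fell by 1.56, 1.53 and 1.42 on the log2 scale, whereas BST2, NLRC5 and TAP2 rose, with log2 fold changes of 0.98, 0.73 and 0.57. HLA-B went from 92.6 and 97.9 CPM to 178 and 171 CPM, but 30.7% of its exonic bases are shared with a same-strand gene. In each of the other knockdowns 17 to 27 of the 49 genes were called lower than in the same siCTL libraries. Directly, siCHD4 was higher at 12 to 20 of the genes and lower at 7 to 15, with 20 and 7 against siGATAD2A.

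Of 20 muscle contraction genes that were tested, 11 rose and 2 fell, of which 5 had passed only through siCHD4, and of the 12 above the filter in siCTL 5 rose and 2 fell. CNN1 (calponin 1), a smooth muscle gene, went from 3.77 and 2.12 CPM to 21.2 and 22.2 CPM, a log2 fold change of 2.91 ± 0.17, and was not called higher in any other knockdown but siCARM1, where its log2 fold change was 0.76. CKMT2, the mitochondrial creatine kinase of muscle, fell by 2.36 on the log2 scale. Of 32 neuronal and synaptic genes 14 rose and 6 fell, and of the 26 above the filter in siCTL 10 rose and 5 fell. CACNA1B, the N-type calcium channel, went from 13.2 and 12.6 CPM to 90.0 and 93.6 CPM, a log2 fold change of 2.84 ± 0.08 (adjusted p = 6.76e-24, edgeR), whereas it lay between 11.7 and 18.6 CPM in the other knockdowns. The intermediate filament gene INA rose by 2.77 and the potassium channel gene KCNC1 by 2.42, and GRIN1, a subunit of the NMDA receptor, fell by 1.33 on the log2 scale.

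Genes of the extracellular matrix and its receptors moved both ways, with 22 of 51 higher and 15 lower, or 17 and 14 of the 44 above the filter in siCTL. The shares of these 44, 38.6% higher and 31.8% lower, compare with the background of 21.9% and 26.0%. COL12A1 went from 36.3 and 35.1 CPM to 136 in both siCHD4 libraries, a log2 fold change of 1.93 ± 0.06, and the integrin gene ITGB3 rose by 1.72 with 33.2% of its exonic bases shared. LAMC1, the gamma chain of most laminins, went from 425 and 426 CPM to 197 and 193 CPM, a log2 fold change of -1.13 ± 0.04, and in the other knockdowns lay between 367 and 495 CPM. COL14A1, ITGB8 and ITGB4 fell by 1.39, 1.09 and 1.05 on the log2 scale.

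WNT pathway genes also moved both ways, with 22 of 64 higher and 19 lower, or 17 and 18 of the 58 above the filter in siCTL. The shares of these 58, 29.3% higher and 31.0% lower, compare with the background of 21.9% and 26.0%. The ligand gene WNT7B went from 1.203 and 1.33 CPM to 20.8 and 19.7 CPM, a log2 fold change of 3.98 ± 0.18, and was also higher in the other knockdowns, by 1.52 to 2.62. The inhibitor gene DKK1 and the receptor gene FZD10 both had log2 fold changes of 2.96. WNT5A, a ligand of the non-canonical branch, went from 38.3 and 35.3 CPM to 16.6 and 16.5 CPM, and SP5, a transcriptional target of the pathway, fell by 1.48 on the log2 scale, and it was also called lower in siHDAC2, siGATAD2A and siKDM1A, by 1.34, 1.41 and 1.05.

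Genes that changed in siCHD4 alone were sought by direct tests. A gene was counted when siCHD4 differed in 1 direction from siCTL and from each of the 4 other knockdowns, and no other knockdown was called against siCTL. Under this rule 493 genes were higher (3.84%) and 580 lower (4.52%), where the absence of a call in the other knockdowns alone gave 957 and 1002. The filter fixes part of the higher count, since 94 of the 493 genes passed it only through siCHD4, and 386 were above it in siCTL. Most of these changes were small, with a median log2 fold change of 0.58 for the higher and -0.59 for the lower genes. Of the 60 near-silent genes 27 were among the higher. Those with the largest smallest difference were SPANXN1, DYDC2, CELA2B, MAGEC1, OTOA, DCT, CT55, GARIN1B, KRT5 and H2BC3, and all of them except H2BC3 were below 0.5 FPKM in each other group.

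H2BC3, a replication-dependent histone gene, was at 0.219 and 0.368 CPM in siCTL and at 6.85 and 8.48 CPM in siCHD4, a log2 fold change of 4.65 ± 0.31, and lay between 0.0515 and 0.548 CPM in the other knockdowns. DCT, a pigment enzyme gene of melanocytes, was counted 3 times and 1 time in siCTL and 125 and 135 times in siCHD4, and KRT5, a keratin of basal epithelia, 1 and 3 times against 68 and 62.

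The genes lower in siCHD4 alone are shown by their 10 largest. TESMIN, a testis-expressed metallothionein-like gene, was at 20.6 and 22.2 CPM in siCTL, at 5.21 and 4.73 CPM in siCHD4 and between 16.6 and 19.7 CPM in the other knockdowns. Its log2 fold change was -2.11 ± 0.12, and its direct differences from the other knockdowns were -1.88 to -1.90. MTHFSD, a gene with a methenyltetrahydrofolate synthetase domain, was at 26.4 and 24.6 CPM in siCTL, at 7.82 and 7.79 CPM in siCHD4 and between 24.2 and 30.6 CPM elsewhere. The others of the 10 were LRRTM4, a synaptic adhesion gene, with a log2 fold change of -2.08, PAK6 and CCDC121, both with -1.91, C1orf54 with -1.85, KIAA0319 with -1.75, GNPDA2 with -1.64, ANKEF1 with -1.59 and CFDP1 with -1.48.

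Non-coding genes were tested in a fit of all gene types. Of 3774 lncRNA genes 544 were called higher (14.4%) and 428 lower (11.3%), with a median log2 fold change of 0.05. LINC01602 had 0 counts in both siCTL libraries and 111 and 105 in siCHD4, at least 60.8-fold higher, and ENSG00000237271 and TMEM132D-AS1 had 0 in siCTL against 59 and 66 and against 55 and 52. UCA1, a lncRNA first described in bladder cancer, was counted once in each siCTL library and 150 and 151 times in siCHD4, a ratio of 127 with a 95% counting interval of 34.9 to 1054, and 0 to 2 times on average in the other knockdowns. ENSG00000263567 went from 7 and 11 counts to 470 and 500, a log2 fold change of 5.52 ± 0.25.

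LINC00963 was the most abundant of the 5 lncRNAs with the largest decrease. It went from 33.4 and 35.0 CPM to 6.76 and 8.68 CPM, a log2 fold change of -2.15 ± 0.10 (adjusted p = 1.43e-21, edgeR), and fell by 0.39 to 0.72 on the log2 scale in the other knockdowns. LINC00957, ENSG00000230699, ENSG00000272163 and MILIP fell by 3.07, 2.25, 2.05 and 1.95. TMEM132D-AS1 is named as antisense to a coding gene, and the strand of the directional libraries was used to keep the pair apart.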

How the data were processed

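Total RNA of the 12 libraries was sequenced in pairs after directional library preparation, by either of 2 providers, and the labels do not say which library went to which. What the authors deposited were raw counts per Ensembl gene identifier, 1 file a library, in the layout of STAR gene counts. The submitters' processing notes name hg19, CASAVA 1.4 and STAR 2.7.10, and the annotation behind the counts is not given in the sources used here. The paper's methods describe another route for its figures, with TopHat, HOMER and DESeq2, so the count test below starts from the deposited counts. Counts of the reverse strand were used, on which the other strand amounted to 7.93% to 8.40%.

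Identifiers were matched to GENCODE release 44 mapped to GRCh37 for coordinates, biotypes and exonic lengths (58662 of 60660, 96.8%). The 1954 unmatched identifiers held 1.75% to 2.61% of the counts, and they were left out together with 44 pseudoautosomal copies on chromosome Y. CPM and FPKM were computed here. Coding genes with a group mean FPKM over 0.5 in at least 1 of 6 groups (12830) were tested with edgeR 4.0.16 in R 4.3.3 (glmQLFit and glmQLFTest, TMM factors 0.968 to 1.01, 6 group means over 12 libraries). The biological coefficient of variation was 3.47%. A call needed an adjusted p (Benjamini-Hochberg) no higher than 0.05 and a 1.2-fold change. The first threshold is that of the paper's methods, and the fold is one the paper applies to a set of its genes. The FPKM limit is also the paper's, which required it in the control or the knockdown sample. Here the mean of any of the 6 groups could meet it. An exact permutation of 2 against 2 libraries cannot give a p below 0.333, so no such test was used. The lncRNA genes were tested among 20156 genes of all types kept by filterByExpr. Replicates differed by more than counting noise, the chi-square over its degrees of freedom being 2.33 in siCTL and 1.70 in siCHD4. The scripts were tested on simulated counts. Intervals for ratios are 95% exact binomial intervals of the counts, and a group at 0 was set to 3 counts over both libraries.

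Named genes were CHD4, GATAD2A, CTCFL, MAP2K6, the NuRD genes, the 10 largest changes each way with at least 50 counts in the higher group, the 15 near-silent genes with the highest FPKM, the 10 genes each way with the largest smallest difference from all other groups (at least 20 counts), up to 4 genes each way per list, and 5 lncRNAs each way. Members named only to give their counts or as not called fall outside it. The members, gene lists and comparisons were chosen with earlier results of these data known. Alternatives were DESeq2 1.42.0, its size factors, a replicate block, a fit of the 4 libraries alone, counts without strand, other filters and thresholds, and leaving out each library. Some members of the lists are counted but not reported by name here.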

Additional observations from a re-analysis of the deposited data

How the results depend on the processing

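The counts of genes higher and lower in siCHD4, those of genes differing from all other groups, the lncRNA counts and the CHD4 fold change kept their side of the threshold, and the counts stayed within 1.5 times, under each alternative run. The number of near-silent genes, 60, depended on the filter and the limit by construction. It was 20 with FPKM over 1, 432 with all genes of at least 1 count, 28 with a limit of 0.05 FPKM and 131 with a limit of 0.2. Leaving out 1 library at a time gave 2884 to 2931 genes higher, 3118 to 3158 lower, 57 to 85 near silent and higher, 449 to 558 and 556 to 645 differing from all other groups, 440 to 489 and 324 to 341 lncRNAs, and a CHD4 log2 fold change of -0.58 to -0.52. DESeq2 called 2988 genes higher and 3046 lower, and 394 and 289 lncRNAs.

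Replicate numbers did not pair the libraries. Over 15 pairs of groups the deviations of same-numbered libraries correlated at -0.21 to 0.20, and 5 of the correlations were below 0. With the replicate number as a block, 3076 genes were higher and 3189 lower, and the CHD4 log2 fold change was -0.54. Small lists changed most. The count of muscle genes that fell was 0 to 2 when 1 library was left out, and without the fold minimum 22 ribosomal protein genes were called higher in place of 8. The 2 libraries a group set the precision for genes of few counts.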

Other observations

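Of 19 other genes on a list of CHD, ISWI and INO80 remodellers and related factors, 8 rose and 1 fell. CHD7, a regulator of neural crest development, went from 106 and 97.2 CPM to 169 and 159 CPM, a log2 fold change of 0.69 ± 0.05, and BAZ1A, CHD1 and BAZ2A had log2 fold changes of 0.79, 0.52 and 0.48. HELLS, one of the related factors, which takes part in DNA methylation, fell by 0.28. The log2 fold change of CHD7 was 0.53 in siGATAD2A, and siCHD4 was not called against it directly. Of 28 partner proteins of NuRD and CHD4, 9 rose and 5 fell, or 8 and 4 of the 26 above the filter in siCTL. ADNP2 had a log2 fold change of 0.66, and BCL11B, BCL11A and CBX3 fell by 0.82, 0.45 and 0.48 on the log2 scale, although both BCL11 genes had positive log2 fold changes in the other knockdowns.

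Polycomb genes, which encode a second system of gene silencing, were changed near the background, with 10 of 43 higher and 8 lower. CBX7 and CBX8 fell by 1.12 and 0.82 on the log2 scale and CBX6 rose by 0.52. Cytosolic ribosomal protein genes had the smallest share of calls among the lists, with 8 of 82 higher and 5 lower and a median log2 fold change of 0.02. Of the HEK293 lineage markers tested, 5 of 12 rose and 2 fell. VIM went from 398 CPM in both siCTL libraries to 707 and 688 CPM, and LHX1 fell by 0.50 on the log2 scale. Of 7 markers of other cell types that were tested 3 rose and 2 fell, with KRT5, described above, and VWF the highest fold changes.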
